A study of Homo sapiens with 6 samples.

Results

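The genes described here encode mitotic kinases, kinetochore proteins, spindle proteins and the regulators of mitotic entry and exit. They were read across 6 RNA sequencing libraries of HCT116, a cell line established from a human colorectal carcinoma. Members were the rows whose gene symbol is on a list of 50 genes of G2 phase and mitosis, and 49 of the 50 symbols were found among the 19942 symbols of the deposited tables. KIF23, a kinesin of the central spindle, was not found under its symbol. A row with its gene identifier, ENSG00000137807, carries the name AC027237.1, and its values are given separately and enter no count. The cells were parental (wild-type) HCT116 or HCT116 with acquired resistance to 5-fluorouracil, a pyrimidine analogue that disturbs thymidylate synthesis and nucleic acids. Each kind of cell was left untransfected, received a control siRNA, or received siRNA targeting EHMT2, the gene of the methyltransferase G9a that modifies lysine 9 of histone H3. All 6 groups are thus the same cell line, and each held 1 library. Further replicates are not analysed here. The sources used here do not give the drug dose behind the resistance, whether the resistant cells are 1 clone, the siRNA sequences or the time after transfection.

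Cells enter mitosis when cyclin B bound to CDK1 is switched on by CDC25 phosphatases and by a feedback that involves Polo and Aurora kinases. Microtubules of the spindle then bind chromosomes at kinetochores, and the spindle assembly checkpoint holds back the anaphase-promoting complex until every kinetochore is attached. Most genes of this machinery are transcribed late in the cell cycle, and FOXM1 and the MuvB complex with B-MYB are known activators of this programme. Colorectal carcinoma cells in culture divide quickly, and MKI67 and TOP2A are in common use as markers of dividing cells.

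The deposited unit is FPKM, fragments scaled to transcript length and to library size, so that levels of different genes can be set side by side. Each library's FPKM summed to between 360730 and 446165, and 11245 to 11730 genes stood at 1 FPKM or more. FPKM keep neither the sequencing depth nor the counting error, and both are unknown. EHMT2 itself stood at 19.8, 31.7 and 8.58 FPKM in parental cells that were untransfected, had control siRNA and had EHMT2 siRNA, in that order. In resistant cells its level was 27.3, 19.5 and 3.80 FPKM in the same order, so that it was lowest with EHMT2 siRNA in each line. Of 9 colorectal epithelium markers, 8 stood at 1 FPKM or more in every library and VIL1 was listed at 0. Their summed level ranged from 1795 to 2707 FPKM, but single markers moved unequally. With EHMT2 siRNA against control siRNA the mean log2 ratio of both lines was -1.67 for KRT19 and 0.94 for KRT18. With control siRNA against untransfected cells the median log2 change of the 8 was -0.74 in the 6-library fit described below. The part of these markers in the results was not tested. Of 7 fibroblast markers, 6 were listed at 0 everywhere, and the summed level, all of it COL1A1, was 3.35 to 9.79 FPKM. Of 6 blood cell markers, PTPRC and CD3E were listed at 0 everywhere, while HBB, a haemoglobin chain, was listed at 0 in both untransfected libraries and stood at 26.4 to 32.2 FPKM in the 4 siRNA libraries.

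Promoter sequences are shown first, because many members share short letters near their start that were described for late cell cycle genes. One kind is the cell cycle genes homology region (CHR), searched as TTTGAA, which is TTCAAA when read from the other strand. It was also searched as TTTAAA, which is a palindrome, and as the rarer palindrome TTCGAA. The other kind is the CCAAT box bound by NF-Y, which becomes ATTGG when read from the other strand. Both strands were searched in the 250 bases before the outermost RefSeq start of each gene (build GRCh38.p14). No match of one kind overlaps a match of the other in the 6 promoters shown. The RefSeq table held promoters for 40 of the 49 members. CCNB1, CCNB2, CDK1 and PLK1 are shown as the core of mitotic entry. CDC20 and ANLN are shown, after their values had been seen, as a member far lower with EHMT2 siRNA and one that was not. All are written 5′ to 3′ on the gene's strand, which is the plus strand for each of the 6. Capitals mark the CHR letters and the CCAAT letters.
CCNB1, chr5:69166900-69167149: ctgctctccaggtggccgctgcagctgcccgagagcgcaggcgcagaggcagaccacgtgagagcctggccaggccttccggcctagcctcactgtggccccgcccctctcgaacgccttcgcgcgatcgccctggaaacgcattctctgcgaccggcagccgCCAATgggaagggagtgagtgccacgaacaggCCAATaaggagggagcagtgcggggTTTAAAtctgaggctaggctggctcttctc
CCNB2, chr15:59104896-59105145: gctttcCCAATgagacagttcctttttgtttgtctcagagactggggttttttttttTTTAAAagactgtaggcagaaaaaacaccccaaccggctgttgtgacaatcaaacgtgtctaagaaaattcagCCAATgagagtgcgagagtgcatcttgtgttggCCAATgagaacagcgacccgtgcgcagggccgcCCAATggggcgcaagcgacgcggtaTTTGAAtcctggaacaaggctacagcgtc
CDK1, chr10:60778081-60778330: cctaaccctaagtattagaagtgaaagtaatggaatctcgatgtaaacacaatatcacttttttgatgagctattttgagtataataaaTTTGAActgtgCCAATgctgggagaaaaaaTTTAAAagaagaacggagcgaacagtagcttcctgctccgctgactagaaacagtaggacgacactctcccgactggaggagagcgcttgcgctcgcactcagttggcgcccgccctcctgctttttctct
PLK1, chr16:23678639-23678888: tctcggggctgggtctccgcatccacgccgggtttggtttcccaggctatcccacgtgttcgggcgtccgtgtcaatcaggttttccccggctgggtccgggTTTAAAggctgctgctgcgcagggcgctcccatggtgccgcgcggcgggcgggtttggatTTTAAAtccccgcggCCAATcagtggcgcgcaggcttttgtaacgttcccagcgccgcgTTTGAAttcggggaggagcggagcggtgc
CDC20, chr1:43358731-43358980: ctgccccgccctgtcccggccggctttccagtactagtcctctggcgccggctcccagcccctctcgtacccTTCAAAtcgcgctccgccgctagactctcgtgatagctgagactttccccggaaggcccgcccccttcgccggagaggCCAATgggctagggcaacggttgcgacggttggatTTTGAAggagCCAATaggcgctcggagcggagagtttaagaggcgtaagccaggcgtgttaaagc
ANLN, chr7:36389612-36389861: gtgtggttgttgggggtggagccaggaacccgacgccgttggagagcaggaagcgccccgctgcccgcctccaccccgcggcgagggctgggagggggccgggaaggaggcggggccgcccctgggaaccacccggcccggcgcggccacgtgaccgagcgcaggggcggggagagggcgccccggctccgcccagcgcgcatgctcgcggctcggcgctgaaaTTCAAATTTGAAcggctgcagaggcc

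In these windows CCNB1 has TTTAAA beginning 30 bases before the start and CCAAT beginning 55 and 87 bases before it. CCNB2 has TTTGAA 29 bases before its start and CCAAT at 54, 87, 120 and 244 bases. PLK1 has TTTGAA at 29 bases, TTTAAA at 88 and 148 bases and CCAAT at 73 bases. In CCNB1, CCNB2 and PLK1 the CHR match nearest the start has a CCAAT match upstream of it. CCNB2 also has TTTAAA at 193 bases. CDK1 has no CHR match nearer than TTTAAA at 131 bases, with CCAAT at 150 and TTTGAA at 161 bases. CDC20 has TTTGAA at 65 and TTCAAA at 178 bases, with CCAAT at 55 and 100 bases, so that its outer CHR match has no CCAAT upstream in the window. ANLN differs in that 2 CHR matches lie side by side, at 26 and 20 bases, with no CCAAT in the window. Over the 40 member promoters, TTTGAA was found in 22 (55.0%), against 13.8% of all 24885 promoters of the same length. TTTAAA was found in 12 members (30.0%, against 11.6% of all promoters) and TTCGAA in 0 of 40 (against 1.2%). Any of these CHR letters were present in 29 members (72.5%, against 23.4%), and CCAAT was present in 31 (77.5%, against 33.4%). Both kinds occurred together in 25 members (62.5%, against 8.4% of all promoters). Among 86 promoters of other mitosis genes, CHR letters were present in 29.1% and CCAAT in 51.2%. The window of CDC25C, a phosphatase that activates CDK1, held neither kind of letters. That holds for its outermost RefSeq start only, as windows at other starts of the gene were not searched. A match is a description of letters and not a binding site. The 29 members with CHR letters had a median log2 ratio of -0.76 with EHMT2 siRNA (mean of both lines), and the 11 without had -0.83. For CCAAT the medians were -0.81 in the 31 members with it and -0.76 in the 9 without. Medians with and without either kind of letters were thus close to each other.

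All 49 members were at 1 FPKM or more in each library. Their median level was 17.5, 29.7 and 16.5 FPKM in parental cells (untransfected, control siRNA, EHMT2 siRNA) and 26.2, 19.7 and 11.2 FPKM in resistant cells. The same order of treatments is used below for all values in threes. The highest library was parental control siRNA for 32 members, resistant untransfected for 15, and parental EHMT2 siRNA for 2, ECT2 and ANLN. Resistant EHMT2 siRNA was the lowest library for 46 members. KIF15 and NUSAP1 were lowest with EHMT2 siRNA in parental cells, and ANLN was lowest in untransfected parental cells. Between its highest and lowest library a member differed 3.1-fold in FPKM at the median, from 1.29-fold for ECT2 to 5.01-fold for SPC25. In untransfected parental cells the levels of members ran from 4.78 FPKM for KIF15 to 77.5 FPKM for CDC25B. In resistant EHMT2 siRNA they ran from 2.52 FPKM for KIF15 to 50.1 FPKM for BUB3.

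**Figure D1:**
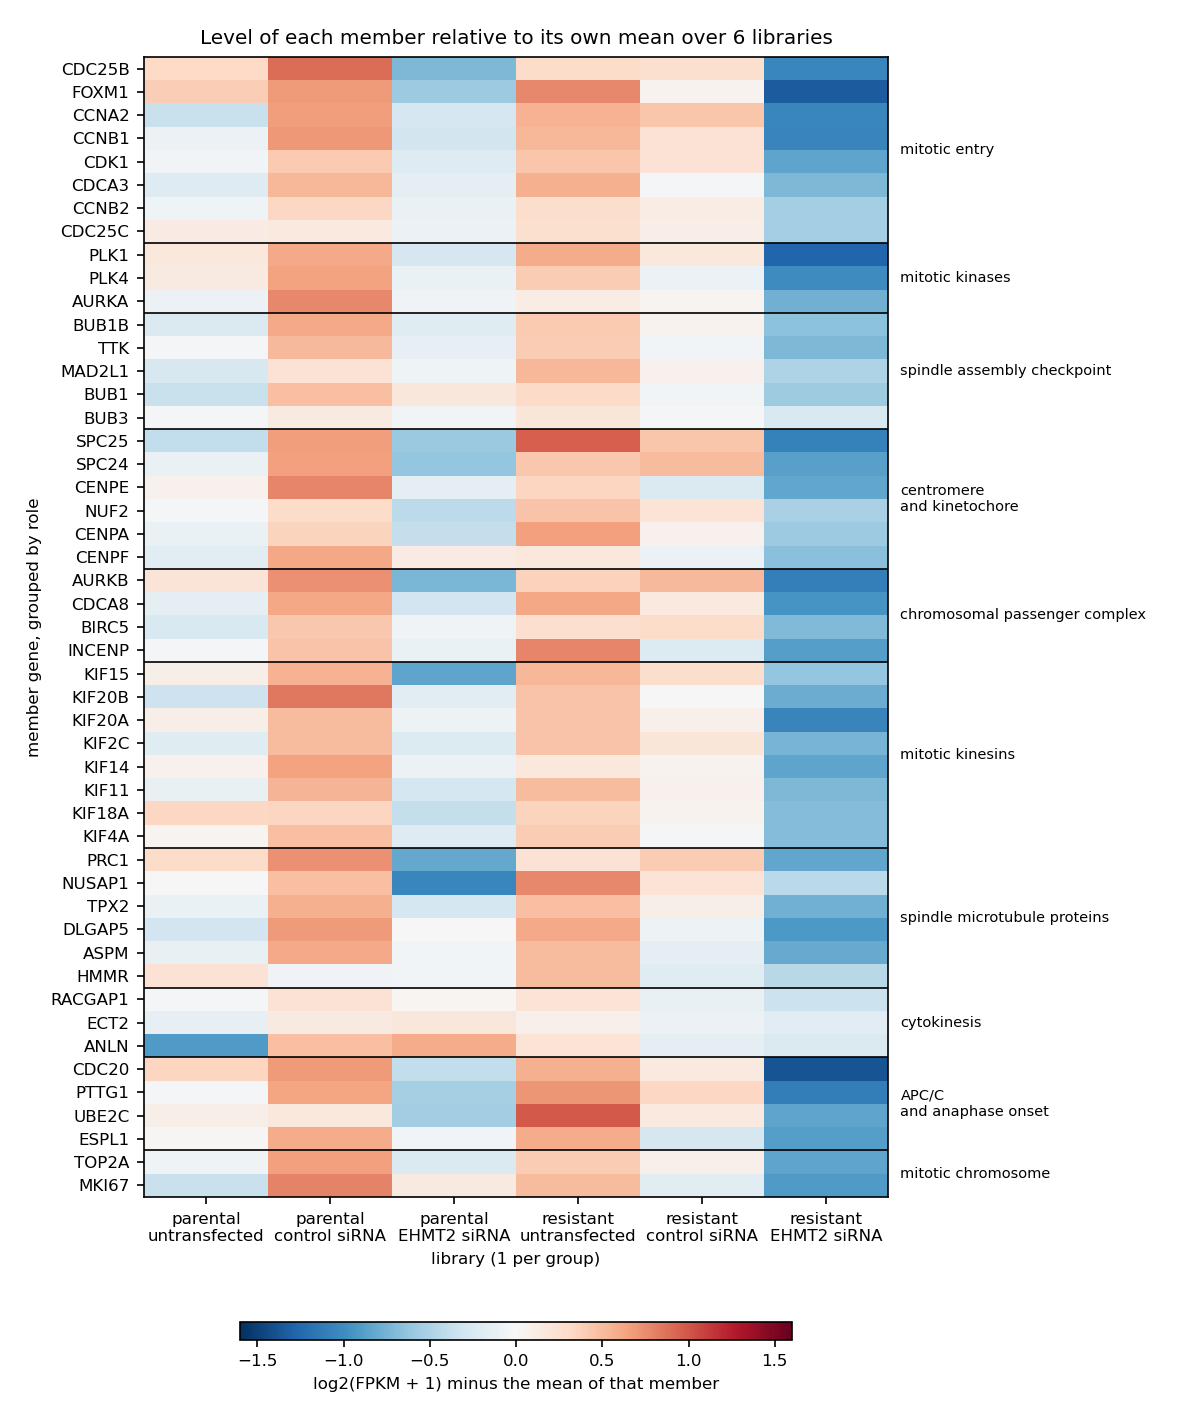
Rows are the 49 members grouped by role, columns are the 6 libraries (1 per group), and colour is log2(FPKM + 1) minus the member's own mean over the 6 libraries. Most rows are red in parental control siRNA and resistant untransfected cells and deepest blue in resistant EHMT2 siRNA, the lowest library for 46 members.

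The comparison of EHMT2 siRNA with control siRNA asks how these genes stand where EHMT2 RNA is lower. The libraries hold RNA only, so neither the methyltransferase protein nor its histone mark was measured here. In resistant cells all 49 members were lower with EHMT2 siRNA, and in parental cells 46 were. The median log2 ratio of FPKM + 1 was -0.80 in resistant and -0.73 in parental cells, while the median over all genes was 0.06 and 0.09. In resistant cells 15 members were at least 2-fold lower and 0 were 2-fold higher, against 4.04% of all 11750 genes lower and 5.22% higher by that fold. In parental cells 11 members were at least 2-fold lower, against 3.51% of 11948 genes lower and 7.48% higher. These pairs have no replicate check. In these bulk libraries, fewer cells in G2 phase and mitosis and less of these RNAs per cell cannot be told apart.

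Of the mitotic entry genes, 5 of 8 were 2-fold lower in FPKM + 1 in resistant and 2 of 8 in parental cells. CDC25B, a phosphatase that starts CDK1 activation at the centrosome, stood at 77.5, 116 and 37.1 FPKM in parental cells and at 75.7, 74.2 and 29.4 FPKM in resistant cells. The EHMT2 siRNA library is the lowest in each line, at 32.1% and 39.6% of the control siRNA level. FOXM1, the transcription factor that drives many late cell cycle genes, measured 25.1, 30.9 and 12.3 FPKM in parental cells and 32.9, 19.7 and 6.86 FPKM in resistant cells. Its log2 ratio with EHMT2 siRNA was -1.27 in parental and -1.398 in resistant cells. CCNB1, the main mitotic cyclin, measured 42.2, 73.4 and 36.5 FPKM in parental cells and 65.3, 53.2 and 21.1 FPKM in resistant cells. CCNA2, the cyclin of S phase and G2, measured 15.1, 31.9 and 16.2 FPKM in parental cells and 29.4, 27.2 and 9.08 FPKM in resistant cells. In parental cells both cyclins were at nearly the same level untransfected and with EHMT2 siRNA, with control siRNA above both. In resistant cells the EHMT2 siRNA library was below both of the others. CDK1, the kinase that these cyclins activate, measured 34.7, 48.0 and 30.8 FPKM in parental cells and 49.1, 42.1 and 19.4 FPKM in resistant cells. Its partner CCNB2 was less far apart, with log2 ratios of -0.43 in parental and -0.66 in resistant cells. The FPKM of CCNB1 was 2.07 times that of CCNB2 in parental control siRNA and 1.40 times in parental EHMT2 siRNA. In resistant cells this ratio of levels was 1.74 with control siRNA and 1.11 with EHMT2 siRNA. CDC25C measured 5.81, 5.93 and 4.81 FPKM in parental cells and 6.42, 5.69 and 3.27 FPKM in resistant cells, so the related phosphatases CDC25B and CDC25C stood unequally far below control. CDCA3, a substrate adaptor for the degradation of WEE1, had log2 ratios of -0.69 in parental and -0.68 in resistant cells.

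Among the kinases of the centrosome and spindle poles, PLK1, the Polo kinase needed from mitotic entry to cytokinesis, measured 33.1, 45.2 and 24.3 FPKM in parental cells. In resistant cells PLK1 measured 44.8, 33.1 and 11.6 FPKM, and its log2 ratio with EHMT2 siRNA was -1.44 there and -0.87 in parental cells. AURKA, the Aurora kinase of the spindle poles, measured 18.6, 34.5 and 19.0 FPKM in parental cells and 21.6, 20.5 and 11.2 FPKM in resistant cells. Its log2 ratios were nearly equal, -0.83 in parental and -0.81 in resistant cells. PLK4, which starts centriole duplication, had log2 ratios of -0.75 and -0.92.

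AURKB, the kinase of the chromosomal passenger complex that corrects faulty attachments, had the lowest mean ratio of all members. It measured 38.6, 56.2 and 19.8 FPKM in parental cells and 43.4, 48.3 and 15.1 FPKM in resistant cells. With EHMT2 siRNA it thus stood at 35.2% of control siRNA in parental and 31.3% in resistant cells. The gene lies at chr17:8204733-8210600 on the minus strand (GENCODE 29, build GRCh38). The other subunits were less far apart. CDCA8 (borealin), which targets the complex to centromeres, had log2 ratios of -0.94 and -1.10 in parental and resistant cells. BIRC5 (survivin), which reads a histone mark at centromeres, had -0.49 and -0.998. INCENP, the scaffold that binds and activates AURKB, measured 12.7, 18.05 and 11.9 FPKM in parental cells and 22.9, 10.99 and 6.58 FPKM in resistant cells. The level of AURKB was 1.63 times that of AURKA in parental control siRNA and 1.04 times in parental EHMT2 siRNA. In resistant cells the same ratio of levels was 2.36 with control siRNA and 1.35 with EHMT2 siRNA.

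At the kinetochore, SPC24 and SPC25, partners in the complex that grips microtubule ends, were among the members furthest below control. SPC25 measured 6.31, 14.2 and 5.37 FPKM in parental cells and 17.6, 12.025 and 3.52 FPKM in resistant cells. SPC24 measured 5.20, 9.45 and 3.34 FPKM in parental cells and 7.98, 8.45 and 2.63 FPKM in resistant cells. The log2 ratios of SPC25 and SPC24 were close to each other, -1.25 and -1.27 in parental cells and -1.53 and -1.38 in resistant cells. NUF2, a subunit of the same complex, measured 12.8, 16.3 and 9.46 FPKM in parental cells and 18.3, 15.3 and 8.76 FPKM in resistant cells. Its log2 ratios of -0.72 and -0.74 were nearer to those of CENPA, the histone variant of centromeres, with -0.73 and -0.65. CENPE, the kinesin that carries chromosomes to the spindle equator, measured 6.21, 10.8 and 5.24 FPKM in parental cells and 7.72, 4.87 and 2.88 FPKM in resistant cells. CENPF, which links kinetochores to microtubule motors, had log2 ratios of -0.49 and -0.57.

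Checkpoint genes were lower by less. None of the 5 was 2-fold lower in either line, and their median log2 ratio was -0.31 in parental and -0.57 in resistant cells. BUB1B (BUBR1), part of the checkpoint complex, had -0.80 and -0.70, and TTK (MPS1), the kinase that starts checkpoint signalling, had -0.64 and -0.67. BUB1 and MAD2L1, a checkpoint kinase and an inhibitor of CDC20, had -0.30 and -0.31 in parental cells and -0.53 and -0.57 in resistant cells. BUB3, an adaptor of the checkpoint that binds kinetochores and is needed outside mitosis too, was shown in full after its values had been seen. It measured 58.4, 65.8 and 57.3 FPKM in parental cells and 68.1, 57.9 and 50.1 FPKM in resistant cells. This was the second smallest spread of any member, 1.36-fold between highest and lowest library.

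The anaphase genes stood low in each line. CDC20, the activator of the anaphase-promoting complex, measured 74.8, 94.6 and 44.4 FPKM in parental cells and 87.5, 65.4 and 21.9 FPKM in resistant cells. UBE2C, the conjugating enzyme of that complex, measured 75.7, 80.0 and 48.0 FPKM in parental cells and 141, 79.4 and 39.1 FPKM in resistant cells. UBE2C with EHMT2 siRNA was thus the lowest of its 3 treatments in each line, while its highest level overall was in untransfected resistant cells. PTTG1 (securin), which holds back separase, had log2 ratios of -1.16 in parental and -1.44 in resistant cells. ESPL1 (separase), the protease that cuts cohesin, measured 6.74, 10.6 and 6.41 FPKM in parental cells and 10.6, 5.36 and 3.15 FPKM in resistant cells. Its log2 ratios were -0.65 and -0.62, so that securin was further below control than the protease it inhibits.

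Among the mitotic kinesins, all 8 counted members were lower with EHMT2 siRNA in each line, with medians of -0.74 in parental and -0.85 in resistant cells. KIF15, which helps to keep the spindle bipolar, measured 4.78, 6.96 and 2.02 FPKM in parental cells and 6.80, 5.61 and 2.52 FPKM in resistant cells. In FPKM + 1, KIF15 and KIF20B, a kinesin of late mitosis, were 2-fold lower in parental cells alone. By the same measure KIF20A, which works in cytokinesis, was 2-fold lower in resistant cells alone. KIF18A, which damps chromosome movement at the spindle equator, measured 12.4, 12.5 and 7.21 FPKM in parental cells and 12.6, 10.1 and 5.59 FPKM in resistant cells. For the motor KIF11, which pushes spindle poles apart, the log2 ratios were -0.83 in parental and -0.78 in resistant cells. KIF14, KIF2C and KIF4A had ratios between -0.93 and -0.67 in both lines. KIF23, read by its identifier, measured 17.1, 35.8 and 21.5 FPKM in parental cells and 31.6, 24.4 and 13.8 FPKM in resistant cells. Its log2 ratios of -0.71 and -0.78 lay near the medians of the counted kinesins.

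Spindle microtubule proteins differed widely among themselves. PRC1, which bundles the central spindle, measured 28.5, 38.8 and 12.6 FPKM in parental cells and 27.1, 31.0 and 12.5 FPKM in resistant cells. NUSAP1, which binds microtubules near chromosomes, measured 35.1, 49.4 and 16.5 FPKM in parental cells and 60.2, 40.8 and 25.8 FPKM in resistant cells. It had the widest gap between the lines, with a log2 ratio of -1.53 in parental and -0.64 in resistant cells. Of the exonic bases of PRC1, 58.4% are shared with other genes, and of those of NUSAP1 62.2%, in each case in part with a gene on the same strand, so that the split of reads between them is uncertain. TPX2, which activates AURKA, had -0.86 in each line. DLGAP5, a kinetochore fibre protein, measured 14.4, 29.6 and 18.1 FPKM in parental cells and 28.0, 17.0 and 9.06 FPKM in resistant cells. ASPM, a spindle pole protein, had log2 ratios of -0.64 and -0.65. HMMR, a spindle protein that also binds hyaluronan, measured 18.9, 15.3 and 15.5 FPKM in parental cells and 23.1, 13.9 and 11.5 FPKM in resistant cells. With a log2 ratio of 0.01 in parental and -0.26 in resistant cells, it was level with control siRNA in parental cells.

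Among the 3 cytokinesis genes, ANLN and ECT2 were near their control siRNA level. ANLN (anillin), the scaffold of the contractile ring, measured 21.3, 57.3 and 62.2 FPKM in parental cells and 47.4, 36.4 and 34.5 FPKM in resistant cells. Its EHMT2 siRNA level was 108.5% of control siRNA in parental and 95.0% in resistant cells. ECT2, the exchange factor that activates RhoA at the cell equator, measured 21.2, 25.8 and 26.5 FPKM in parental cells and 24.7, 21.8 and 20.5 FPKM in resistant cells. RACGAP1, the partner of KIF23 in the complex that recruits ECT2, had log2 ratios of -0.21 and -0.22. The median log2 ratio of these 3 genes was 0.04 in parental and -0.08 in resistant cells. BUB3 and, in parental cells, HMMR, of other roles, had ratios in the range of these 3, while KIF20A, PRC1 and KIF23, which also work in the central spindle or in cytokinesis, were further below control. ANLN stood at 0.606 times the FPKM of CDC20 in parental control siRNA and at 1.40 times with EHMT2 siRNA. In resistant cells that ratio of levels was 0.556 with control siRNA and 1.58 with EHMT2 siRNA, so that the order of the 2 genes is the opposite with EHMT2 siRNA.

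The proliferation markers lay near the median of all members. TOP2A, the topoisomerase that untangles sister chromatids, measured 23.9, 40.3 and 21.3 FPKM in parental cells and 33.5, 26.6 and 13.5 FPKM in resistant cells. MKI67 (Ki-67), a coat protein of mitotic chromosomes, measured 26.2, 59.7 and 37.4 FPKM in parental cells and 48.8, 29.7 and 17.7 FPKM in resistant cells. With EHMT2 siRNA, MKI67 stood at 62.7% of control siRNA in parental and 59.5% in resistant cells.

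**Figure D2:**
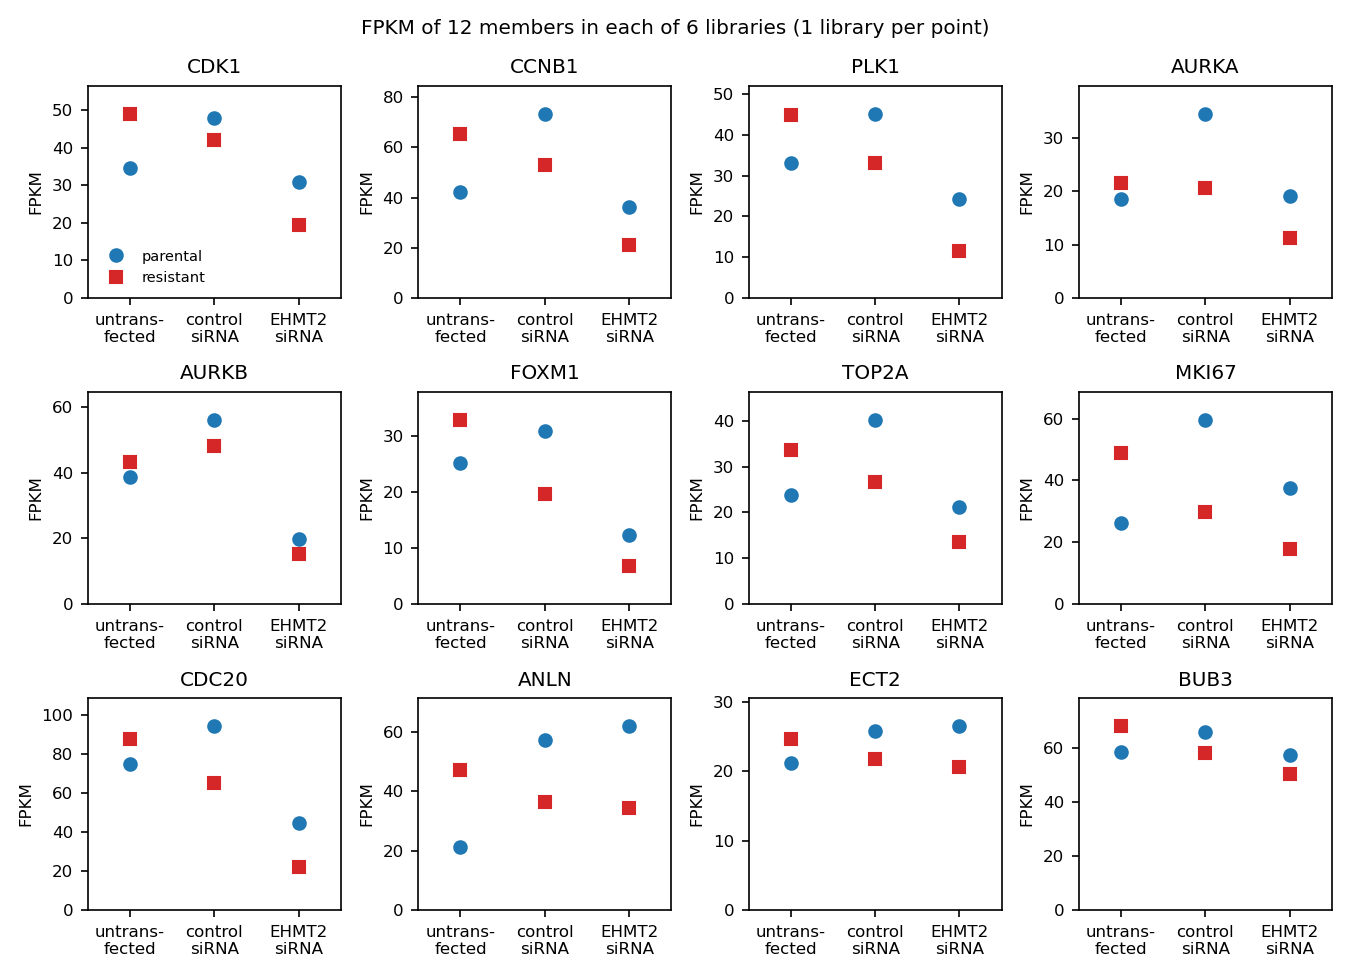
Each panel gives the FPKM of 1 member (vertical axis, from 0) for each treatment (untransfected, control siRNA, EHMT2 siRNA), with circles for parental and squares for resistant cells and 1 library per point. In every panel the square is above the circle untransfected and below it in both siRNA treatments. ANLN, ECT2 and BUB3 share this line pattern but show no low point with EHMT2 siRNA of the size seen for AURKB.

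The ratios of the lines can be set side by side because they share no library. In FPKM + 1, 8 members were at least 2-fold lower with EHMT2 siRNA in both lines, namely CDC25B, FOXM1, SPC24, SPC25, AURKB, PRC1, CDC20 and PTTG1. These 8 are 53.3% of the 15 in resistant cells and 72.7% of the 11 in parental cells. The matching overlap over all genes is not given here, so these shares have no baseline and describe the members only. Another 7 reached that fold in resistant cells alone, namely CCNA2, CCNB1, CDK1, PLK1, CDCA8, KIF20A and UBE2C. In parental cells alone 3 did, KIF15, KIF20B and NUSAP1. These lists depend on the cutoff and on the 1 added to FPKM. In parental cells CCNA2 and CDCA8 each had a log2 ratio of -0.94. Without the 1 added, CCNB1 in parental cells stood at 49.6% of control siRNA and KIF15 in resistant cells at 45.0%. With 0.1 added, 19 members in resistant and 13 in parental cells were 2-fold apart (14.8% and 17.2% of all genes). The ratio was the lower one in resistant cells for 36 members and in parental cells for 13, with a median difference of -0.11 on the log2 scale. For 31 members the ratios differed by less than 0.25. Whether the lines differ in any of these ratios was not tested. Across the 49 members the ratios of the lines had a Pearson r of 0.765 and a Spearman rho of 0.731, as a description of genes measured in the same libraries.

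**Figure D3:**
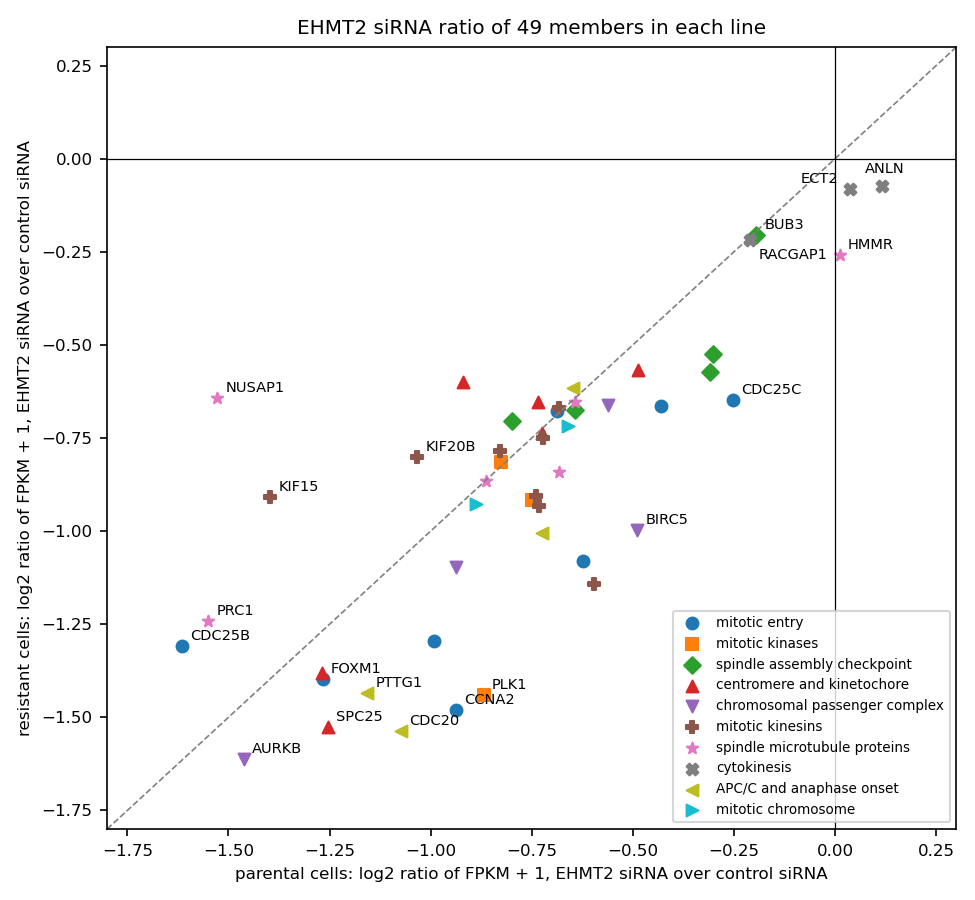
Each point is 1 of 49 members, with its log2 ratio of FPKM + 1 (EHMT2 siRNA over control siRNA) in parental cells on the horizontal and in resistant cells on the vertical axis, and symbols giving its role. All points lie below 0 in resistant cells and 46 of 49 in parental cells, and NUSAP1 and KIF15 lie furthest above the dashed line of equal ratios.

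For a test, limma was fitted to log2(FPKM + 1) of all 6 libraries with line and treatment as terms, which takes the unequal behaviour of the lines as the error. In this fit 0 of 49 members passed a Benjamini-Hochberg adjusted p of 0.05 for EHMT2 siRNA against control siRNA, and 0% of all 11521 genes did in either direction. At an unadjusted limma p under 0.05, 26 members were lower and 0 higher, where 3060 of all 11521 genes passed in one direction or the other. The lowest adjusted p of a member in this limma fit was 0.0529, shared by PRC1, AURKB and CDC25B, and EHMT2 itself had 0.0636. The same limma model over the 4 siRNA libraries alone, 1 of the alternatives, called 43 of 49 members lower and 0 higher, where 19% of all 11182 genes were called lower and 24.3% higher. In that fit the log2 change of AURKB was -1.54 ± 0.12 (SE; limma adjusted p = 0.000493), that of CDC25B -1.46 ± 0.12 (limma adjusted p = 0.000564) and that of SPC25 -1.39 ± 0.14 (limma adjusted p = 0.000876). The 6 members not called were CDC25C, BUB3, HMMR, ECT2, ANLN and RACGAP1. By role, the 4-library fit called 7 of 8 mitotic entry genes, 3 of 3 kinases, 6 of 6 kinetochore genes, 4 of 4 passenger genes, 8 of 8 kinesins, 4 of 4 anaphase genes and 4 of 5 checkpoint genes lower, but 0 of 3 cytokinesis genes. The 6-library and the 4-library fits differ in the untransfected libraries, and the call rests on leaving those out. Leaving out either untransfected library alone also called 43 members, beside 19% to 19.1% of all genes lower. That is no repeat, because the untransfected library that remains has its own term and the estimates stay those of the 4-library fit. With 1 of the 4 siRNA libraries left out of the 6-library fit, the median change of the members ran from -1.08 to -0.50. Those fits keep both untransfected libraries, so they are no check of the 43 calls. The 4-library fit itself cannot lose a library, because no residual degrees of freedom would remain. COL1A1, the 1 fibroblast marker of 7 above 0, moves with this comparison at 6.01 FPKM with control and 9.79 FPKM with EHMT2 siRNA in parental cells and at 3.35 and 4.92 FPKM in resistant cells. Its part in the result was not tested.

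Set against untransfected cells instead, an alternative chosen after seeing the data, the lines looked different. In resistant cells all 49 members were lower with EHMT2 siRNA than untransfected, by a median log2 ratio of -1.24, and 37 were at least 2-fold lower (7.4% of all genes were, and 7.5% were higher). In parental cells 34 were lower and 15 higher, with a median of -0.17, and 3 were at least 2-fold lower (5.79% of all genes were). ANLN was 2-fold higher in that parental pair, with a log2 ratio of 1.501 (9.25% of all genes were higher by that fold). How the members compare between the untransfected and control siRNA libraries therefore bears on the EHMT2 siRNA result in parental cells.

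Control siRNA against untransfected cells went opposite ways in the lines. In parental cells 48 of 49 members were higher with control siRNA, all but HMMR, with a median log2 ratio of 0.57 against 0.04 over all genes. In resistant cells 45 were lower, with a median of -0.37 against -0.05 over all genes. In parental cells 5 members were at least 2-fold higher in FPKM + 1 and 0 lower (0.954% of all genes were higher and 2.08% lower). Those were ANLN, KIF20B, MKI67, SPC25 and CCNA2, with log2 ratios of 1.39, 1.19, 1.16, 1.06 and 1.03. In resistant cells 0 members were 2-fold apart in FPKM + 1 (4.31% of all genes were higher and 3.87% lower). The lowest log2 ratio there was that of INCENP, -0.99. Both directions held together for 44 members, while SPC24, AURKB, BIRC5, PRC1 and HMMR did not follow them. In the 6-library limma fit 0 members were called for control siRNA, where 0.0347% of all genes were called higher and 0.00868% lower. An unadjusted limma p under 0.05 was reached by 0 members and by 813 of all 11521 genes. Leaving out the resistant untransfected library, the median change of the members was 0.58, and leaving out the parental one it was -0.39. In each case the 1 untransfected library left has its own term. The estimate then rests on the untransfected library of 1 line, has no replicate check and is no repeat of the pair. The colorectal epithelium markers move with this comparison, with a median log2 change of -0.74 and 0 of 8 called in the 6-library limma fit. The blood cell marker list moves with it too. Of its 6 genes 0 reached 1 FPKM in the untransfected libraries (summed level 0.0 and 0.51 FPKM) and 1, HBB, did in each siRNA library (summed level 27.05 to 32.5 FPKM), and its part in the result was not tested.

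Resistant against parental cells also depended on the treatment. Untransfected, 47 of 49 members were higher in resistant cells, with a median log2 ratio of 0.49 against 0.07 over all genes. With control siRNA all 49 were lower in resistant cells, with a median of -0.46 against -0.02 over all genes. With EHMT2 siRNA 47 were lower, with a median of -0.58 against -0.05, and NUSAP1 and KIF15 were the exceptions with log2 ratios of 0.62 and 0.22. Few members reached a 2-fold difference in FPKM + 1. Untransfected, SPC25 and ANLN were at least 2-fold higher, with log2 ratios of 1.35 and 1.12 (3.48% of all genes were higher by that fold and 3.92% lower). With control siRNA only CENPE was at least 2-fold lower by this measure, with a log2 ratio of -1.01 (0.96% of all genes were lower and 1.6% higher). In FPKM without the 1 added, MKI67 with control siRNA also stood at 0.498 times its parental level. With EHMT2 siRNA, MKI67 and PLK1 were at least 2-fold lower, with log2 ratios of -1.04 and -1.01 (1.55% of all genes were lower and 1.54% higher).

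For 47 members the sign was opposite between the untransfected and the control siRNA pair, which share no library, and CDC25B and PRC1, lower in resistant cells in each, were the exceptions. MKI67, with a log2 ratio of 0.87 untransfected and -0.98 with control siRNA, and ANLN, with 1.12 and -0.64, show the widest contrast of the 49 members. KIF18A was level between the lines untransfected, with a ratio of 0.02, and UBE2C was level with control siRNA, with -0.01. Across the 49 members, the untransfected and control siRNA line ratios had a Pearson r of -0.06 and a Spearman rho of -0.08. The control siRNA and EHMT2 siRNA line ratios had a Pearson r of 0.566 and a Spearman rho of 0.632. These are descriptions over genes of the same libraries.

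The 6-library limma fit called 0 members for line, where 0% of all genes were called in either direction. An unadjusted limma p under 0.05 was reached by 0 members and by 603 of all 11521 genes. Over the 4 siRNA libraries, limma called 24 of 49 members lower in resistant cells and 0 higher, where 5.08% of all genes were called lower and 5% higher. MKI67 had a log2 difference of -1.01 ± 0.11 (SE; limma adjusted p = 0.0071), followed by ESPL1 at -0.85 ± 0.14 (limma adjusted p = 0.0182) and CENPE at -0.85 ± 0.15 (limma adjusted p = 0.0227). The kinases PLK1, PLK4 and AURKA were all called lower, while AURKB (-0.29, limma adjusted p = 0.141) and CDK1 (-0.41, limma adjusted p = 0.0985) were not. This call, too, was made only with an untransfected library left out, and the untransfected pair has the opposite sign. COL1A1, too, is lower in resistant cells in each pair, from 3.35 to 4.92 FPKM against 4.51 to 9.79 FPKM in parental cells, and its part was not tested.

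**Figure D4:**
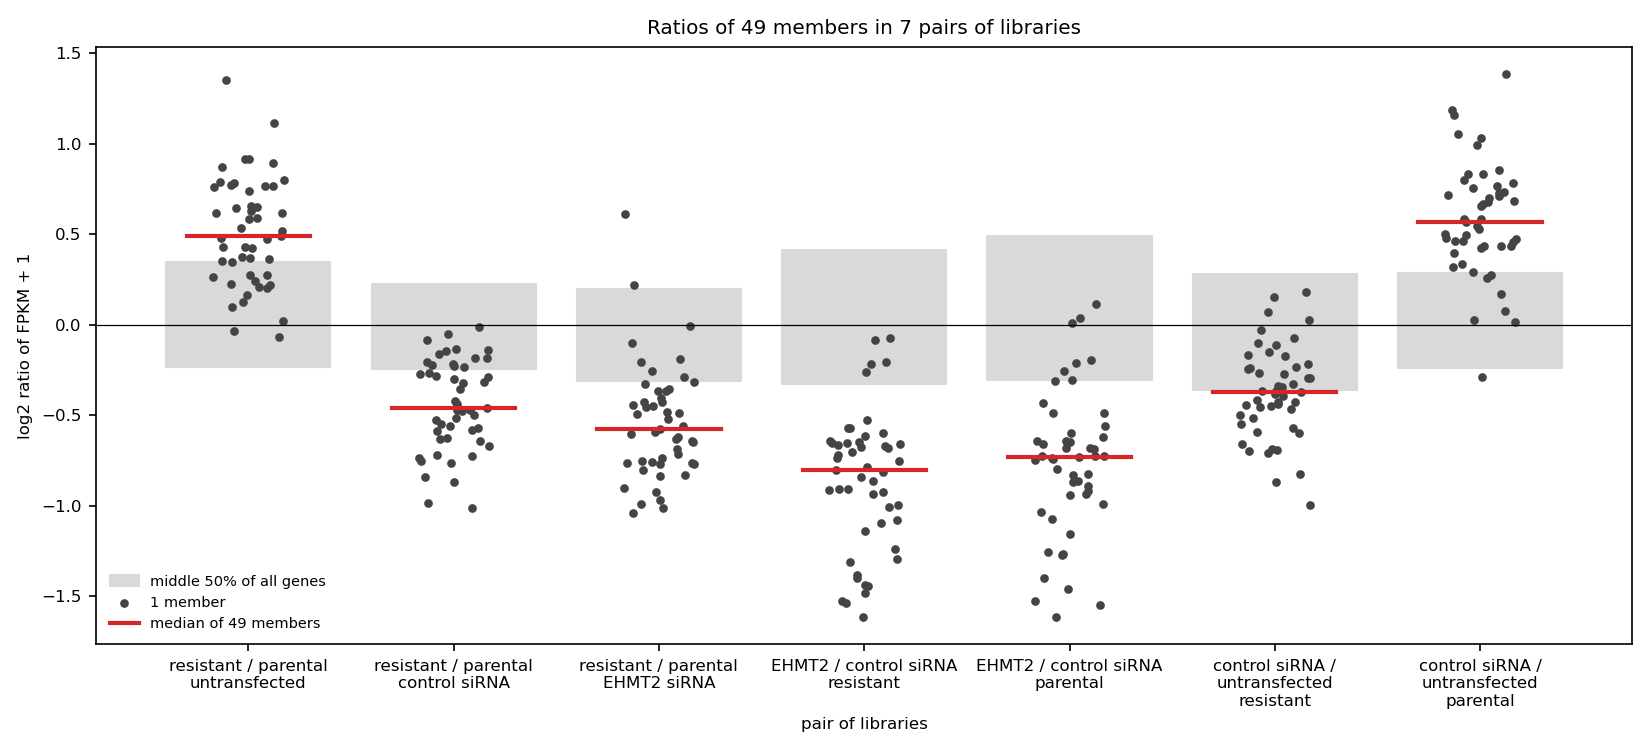
Dots are the log2 ratios of FPKM + 1 of the 49 members in 7 pairs of libraries, red lines are their medians and grey boxes span the middle 50% of all genes. The medians are 0.49, -0.46 and -0.58 for resistant over parental cells, -0.80 and -0.73 for EHMT2 siRNA over control siRNA, and -0.37 and 0.57 for control siRNA over untransfected cells, with resistant before parental cells in the last 2 kinds of pair.

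Other genes of mitosis were taken from lists that are not members, and described in the fit over the 4 siRNA libraries for EHMT2 siRNA, which called 19% of all genes lower and 24.3% higher. Of 110 such genes tested, 56 were called lower and 4 higher, with a median log2 change of -0.42 against -0.81 for the members. Condensin and cohesin protection genes were called lower in 9 of 11 cases, with NCAPH, a condensin subunit, at -1.17 and CDCA5 (sororin), which protects cohesin, at -0.91. Of 27 further kinetochore genes 14 were called lower and 1 higher. CENPM and CENPK, subunits of the inner kinetochore, stood at -1.34 and -0.98, while SKA2, of the outer kinetochore, was higher by 1.12 on the log2 scale. Among 20 further genes of mitotic entry and exit, 14 were called lower and 0 higher, with PIMREG at -1.72 and CDC25A at -1.10. Spindle and centrosome genes were called lower in 13 of 21 cases, with BORA, the activator of PLK1 by AURKA, at -1.04 and CEP55, of the abscission machinery, at -1.003. CKAP5 and HAUS8 were at the other end of that list, at 0.19 and 0.21. The highest of the condensin and cohesin list was NCAPH2 at 0.04, and of the entry and exit list ENSA at 0.07.

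The core subunits of the anaphase-promoting complex itself were mostly not called. Of 16, 2 were lower, CDC23 at -0.60 and CDC16 at -0.35, and 1 was higher, ANAPC13 at 1.34, with a median of 0.09. CDC20 and UBE2C, which work with this complex, were called lower in the same fit at -1.31 and -0.86. Among 15 transcription factor genes of the MuvB, E2F and NF-Y groups, 4 were called lower and 2 higher. For these and the core subunits, the shares of all genes to set beside are 19% lower and 24.3% higher. MYBL2 (B-MYB) stood at -1.63 (limma adjusted p = 0.000493), and LIN37, a MuvB subunit, was higher by 0.50 (limma adjusted p = 0.0206). In the 6-library fit 0 genes of these lists were called.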

How the data were processed

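Per the labels' protocols, the library kit was TruSeq RNA v2. HISAT2 2.2.1 and StringTie 2.1.1 are named with build GRCh38 in the submitters' processing notes, next to cutadapt 4.9 and FastQC 0.12.1. No label or header states the order of steps, the annotation release or the strand setting. The values the authors deposited are FPKM, 1 table per library with 19957 rows, and their depth is unknown. Groups were taken from the sample titles. Tables were joined by gene identifier, and where a symbol repeats (15 further rows) the row with the highest mean was used.

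Each pair of libraries was compared by the log2 ratio of FPKM + 1, without a test, and all genes means those at 1 FPKM or more in either library. Unless another added value is stated, fold counts use FPKM + 1, so a member 2-fold apart in FPKM can fall short. Genes that reached 1 FPKM in 3 or more libraries were fitted with limma 3.58.1 in R 4.3.3, with line and treatment as terms, a mean-variance trend and Benjamini-Hochberg adjustment over all genes. This fit leaves 2 residual degrees of freedom, and that over the 4 siRNA libraries leaves 1. The p-values measure only how unequally the lines respond, not the spread of replicates. The named members are the extremes of each kind of pair, 8 core members, and others where stated. Of each other list the 2 highest and 2 lowest by EHMT2 siRNA ratio could be named. Gene positions are from GENCODE 29 and promoters from RefSeq. The members and lists were chosen with earlier results of these data known.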

Additional observations from a re-analysis of the deposited data

Results flagged for a closer look

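The median log2 ratio of control siRNA over untransfected cells was 0.57 over the 49 members in parental cells and -0.37 in resistant cells. It is listed because the only pair of each line goes the opposite way. With 1 library per group the difference was not tested. Members differ in its size. MKI67, at 26.2 FPKM untransfected and 59.7 FPKM with control siRNA in parental cells, stood at 48.8 and 29.7 FPKM in resistant cells. For ECT2 the same levels were 21.2 and 25.8 FPKM in parental cells and 24.7 and 21.8 FPKM in resistant cells.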

How the results depend on the processing

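Medians of the pair ratios over the members kept their sign under the alternatives run, and 42 of 44 stayed within 1.5 times the value given. The exceptions take the untransfected library as the reference for EHMT2 siRNA, with -1.24 in resistant and -0.17 in parental cells. Rescaling libraries to the same FPKM sum moved the median of all genes from 0.07 to 0.28 in the untransfected line pair, from 0.09 to 0.20 for EHMT2 siRNA in parental cells and from 0.04 to 0.19 for control siRNA in parental cells. Counts of members 2-fold apart moved more. At 1.5-fold they were 21, 14 and 25 for line (untransfected, control siRNA, EHMT2 siRNA), 41 and 37 for EHMT2 siRNA (resistant, parental) and 10 and 23 for control siRNA (resistant, parental). The shares of all genes 1.5-fold apart were, in the same order, 21.8%, 12% and 15.5% for line, 29.6% and 33.0% for EHMT2 siRNA and 24.3% and 15.2% for control siRNA. At 4-fold they were 0 throughout. With the same sum they were 10, 0 and 4 for line (8.78%, 2.58% and 3.27% of all genes) and 1 and 9 for control siRNA (8.43% and 3.43%). For EHMT2 siRNA with the same sum they were 14 in resistant and 9 in parental cells (9.46% and 12.2%). With 0.1 added to FPKM they were 2 and 6 for line with control and EHMT2 siRNA (4.97% and 7.0% of all genes). For control siRNA in resistant cells the count was 1 (12.8% of all genes). With ratios centred on all genes, line gave 0 with control siRNA and 0 with EHMT2 siRNA, and the shares of all genes so centred are not given here. Against untransfected cells EHMT2 siRNA gave 37 in resistant and 4 in parental cells. Of all genes, 7.4% were lower and 7.5% higher in that resistant pair, and 5.79% lower and 9.25% higher in the parental one.

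The fits made 0 calls over 6 libraries, and 3 members were called lower for EHMT2 siRNA with a minimum of 5 FPKM (1.61% of all genes). The members' median change in the 6-library fit turned from -0.13 to 0.05 for line without either EHMT2 siRNA library. For control siRNA it turned from 0.12 to -0.39 without the parental untransfected and to -0.10 without the parental control siRNA library. Over the 4 siRNA libraries, 43 were lower for EHMT2 siRNA (44 with quantile normalisation, 41 with the same sum, 43 with 0.1 added) and 24 for line (31, 25 and 26), the last 3 settings of each chosen after seeing the data. In the same order, 19%, 23.5%, 15.3% and 19.4% of all genes were called lower for EHMT2 siRNA. For line these shares were 5.08%, 8.57%, 5.74% and 6.19%. Leaving out each library in turn gave 0 to 24 calls for line, 0 to 43 for EHMT2 siRNA and 0 to 13 for control siRNA. The cause was not tested. The EHMT2 siRNA change of ANLN turned to -0.019 with quantile normalisation (-0.016 over the 4 siRNA libraries) and ranged from -0.51 to 0.56 with 1 library left out. That of ECT2 turned to 0.067 with the same sum in either fit and ranged from -0.19 to 0.15 with 1 library left out, and HMMR ranged from -0.36 to 0.11. In the fits for EHMT2 siRNA against control siRNA, the other 46 members kept their direction under each alternative run. Against untransfected parental cells 15 members were higher with EHMT2 siRNA. No paired analysis was possible because every group holds 1 library, all numbered alike. A fit over the 4 siRNA libraries with 1 left out has no residual degrees of freedom and was not run. With unknown depth, counting error cannot be given for low members such as KIF15.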

Other observations

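Genes that copy DNA before mitosis were lower with EHMT2 siRNA too. Of 40 replication licensing and fork genes, 33 were called lower and 0 higher by limma with the 4 siRNA libraries alone, with a median log2 change of -0.79, and 0 were called over 6 libraries. MCM5, a subunit of the replicative helicase, measured 22.8, 37.4 and 7.54 FPKM in parental cells and 38.6, 19.9 and 4.31 FPKM in resistant cells (untransfected, control siRNA, EHMT2 siRNA). Its partner MCM3 measured 49.3, 82.1 and 26.8 FPKM in parental cells and 73.7, 68.0 and 23.7 FPKM in resistant cells. At the other end of this list RPA1 and RPA2 had log2 changes of 0.31 and -0.12. Of 17 G1 genes tested in the fit over the 4 siRNA libraries, 7 were lower and 1 higher, where 19% of all genes were lower and 24.3% higher. CDK4, a kinase of G1, had a log2 change of -1.38, and CCND1 (cyclin D1), its activator, was higher by 0.66. CHR letters were found in 6.1% of 33 replication gene promoters and in 72.5% of the 40 member promoters, and CCAAT in 54.5% and 77.5%. In 86 promoters of other mitosis genes the shares were 29.1% and 51.2%. With the 50 bases after the start added, a window chosen after seeing the data, 90.0% of the member promoters and 25.7% of all promoters held CHR letters.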
